A study of Mus musculus with 3 samples.

Results

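The cells described here were selected as early macrophages and other myeloid cells of the mouse forelimb bud at embryonic day 9.5. They number 99 of 10659 kept barcodes, and some of them carried genes of lymphocytes or megakaryocytes. Kept barcodes held 1000 genes or more and drew under 10% of their unique molecular identifiers (UMIs) from mitochondrial genes. A kept barcode was a member when the UMIs of Tyrobp, Fcer1g, Coro1a and Spi1 summed to at least 2 per 10000 UMIs of the cell (CP10K). It also had to stay under 5 CP10K for S100a8 and S100a9, under 2 for the mesenchymal genes Prrx1, Tbx5 and Twist1, under 2 for the endothelial genes Cdh5, Pecam1 and Emcn, and under 1 for the ectodermal genes Epcam, Trp63 and Wnt6. The cells were thus chosen by their own expression, so every value that sets them against the other kept barcodes is a description without a test.

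Macrophages of the early embryo arise largely from progenitors of the yolk sac and enter tissues as the circulation starts, before blood stem cells contribute. They take up dying cells, depend on the receptor encoded by Csf1r, and tag debris with the C1q complement proteins. Their precursors share the transcription factor PU.1, encoded by Spi1, with granulocyte and monocyte precursors, which store enzymes such as those encoded by Prtn3 and Mpo in granules.

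Mutants and controls alike had both copies of Esco2 floxed (Esco2fl/fl). The gene encodes an acetyltransferase of the cohesin ring that holds sister chromatids together. Mutant embryos also carried 1 copy of the Prrx1-Cre transgene (Esco2fl/fl;Prrx1-CreTg/0), whose promoter is active in limb mesenchyme, and control embryos were Esco2fl/fl alone. The libraries used here are 2 of mutants and 1 of controls, each a pool of 6 limb buds from 2 male samples and 1 female sample. The series was made to study limb reduction in a model of a cohesin disorder, and sources do not say whether libraries came from separate litters.

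The kept barcodes numbered 3208 in mutant 1, 4425 in mutant 2 and 3026 in control 1. Members numbered 21 in mutant 1, 43 in mutant 2 and 35 in control 1, with median depths of 83714, 72655 and 93009 UMIs. The median depths of the other kept barcodes were 43113 UMIs in mutant 1, 45605 in mutant 2 and 46072 in control 1. Members had a median of 7844, 7556 and 7834 genes detected in mutant 1, mutant 2 and control 1. Summed over members, a library gave 1649938 UMIs in mutant 1, 2971414 in mutant 2 and 3036950 in control 1, and levels are given as CPM, a gene's UMIs scaled by such a sum. Few kept barcodes were shared between libraries, 6 between mutant 1 and mutant 2 and 2 between each mutant and control 1. The doublet caller Scrublet marked 2 members, both in mutant 2, and these were kept. The libraries differed in the sex of their cells. A UMI of Xist, the RNA of the inactive X chromosome, was found in 1 of 21 members of mutant 1, 5 of 43 of mutant 2 and 25 of 35 of control 1. Among the other kept barcodes the share was 3.73% in mutant 1, 5.36% in mutant 2 and 19.6% in control 1. UMIs of Y-linked genes were found in 90.5% of members of mutant 1, 83.7% of mutant 2 and 37.1% of control 1. In other kept barcodes they were found in 90.8% of mutant 1, 87.3% of mutant 2 and 69.1% of control 1, so the mutant libraries held fewer female cells than the labelled mix of samples would give in like numbers. The part of this difference in the comparisons of genotypes was not tested.

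UMIs of the Cre sequence were found in 0 of 21 members of mutant 1, 0 of 43 of mutant 2 and 0 of 35 of control 1, which allows shares of up to 14.3%, 6.98% and 8.57%. Mesenchymal cells of the same libraries had such a UMI in 4.82% of 1285 cells in mutant 1, in 5.60% of 2304 cells in mutant 2 and in 0 of 1205 cells in control 1. Within each mutant library the limit for members lies above the share in mesenchyme, so neither library by itself tells members from mesenchyme by Cre UMIs. Whether the mutant members of both libraries pooled differ from mesenchyme in this share was not tested. The limits also take no account of depth, whose median was higher in members than in the other kept barcodes. Esco2 itself stood at 24.2 CPM in members of mutant 1, 30.3 CPM in members of mutant 2 and 25.02 CPM in members of control 1. Reads were taken at 3′ ends, and no source says which part of Esco2 is floxed, so these levels are no measure of its loss.

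Tyrobp and Fcer1g encode adaptor proteins that carry activating signals of Fc and TREM receptors, and Coro1a encodes an actin-binding protein of leukocytes. Summed, the 4 chosen genes stood at a median of 18.6 CP10K in members of mutant 1, 21.8 in those of mutant 2 and 17.8 in those of control 1. A UMI of Tyrobp was found in 75 of the 99 members, of Fcer1g in 85, of Coro1a in 93 and of Spi1 in 83, and 75 members had all 4. Another 15 members had only 1 of the 4 genes and 5 rested on a single UMI, so the edge of the group is thinly supported. Just outside the threshold, between 1 and 2 CP10K, lay 3 barcodes of mutant 1, 6 of mutant 2 and 3 of control 1. Just inside it, between 2 and 4 CP10K, lay 3, 7 and 2. Before the other limits were applied 154 barcodes passed, 27 in mutant 1, 56 in mutant 2 and 71 in control 1. The limit on S100a8 and S100a9, granule genes of neutrophils, removed 17 barcodes, all of control 1. The limit on endothelial genes removed 22 and that on mesenchymal genes 17.

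**Figure D1:**
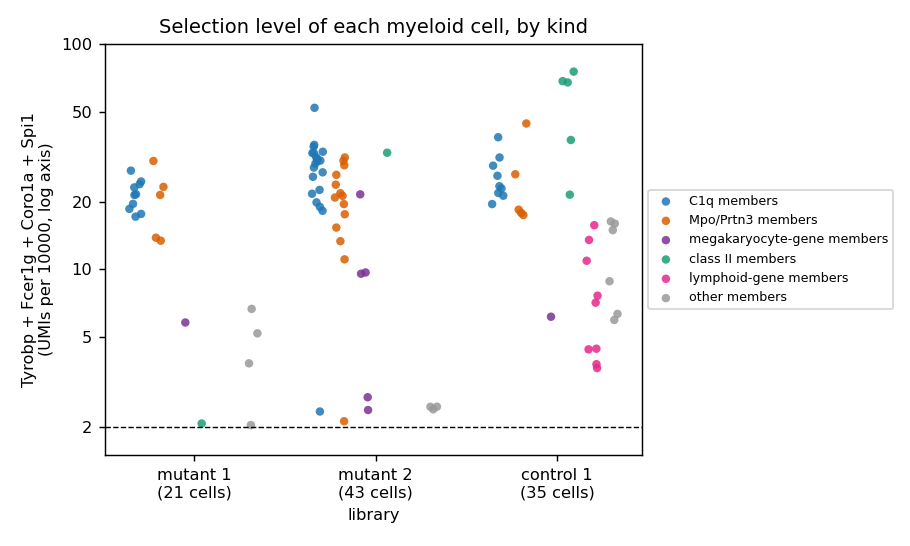
Summed level of Tyrobp, Fcer1g, Coro1a and Spi1 in each member, in CP10K on a log axis, by library, with a point per cell coloured by the kind of cell and a dashed line at the threshold of 2 CP10K. The C1q members lie mostly well above the line, while megakaryocyte-gene, lymphoid-gene and other members lie mostly lower than they do.

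The label of macrophages held for a part of the members, and for a smaller part in control 1. Csf1r, the receptor for the growth factors CSF1 and IL-34, had a UMI in 68 of 99 members. At least 10 of 18 macrophage genes had a UMI in 55 members, 13 in mutant 1, 27 in mutant 2 and 15 in control 1. Members were therefore divided into kinds by other genes, with limits set after the data were seen. A member with at least 1 CP10K of C1qa, C1qb and C1qc together is called a C1q member, and a member under that limit with at least 2 CP10K of Mpo and Prtn3 is called an Mpo/Prtn3 member. Class II members had at least 10 CP10K of Cd74, H2-Aa, H2-Ab1 and H2-Eb1, which encode proteins that present antigen. Lymphoid-gene and megakaryocyte-gene members had at least 10 CP10K over a list of lymphocyte or megakaryocyte genes, from at least 2 genes of the one or 5 of the other, and these 3 kinds were set aside first. Where a member met the limits of more than 1 of these 3, lymphoid-gene came before class II, and class II before megakaryocyte-gene. These names state a level of genes, and 13 members met none of the limits.

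C1q members numbered 39, with 10 in mutant 1, 20 in mutant 2 and 9 in control 1. Mpo/Prtn3 members numbered 24, with 5 in mutant 1, 14 in mutant 2 and 5 in control 1. The remaining kinds were small. Megakaryocyte-gene members numbered 1 in mutant 1, 5 in mutant 2 and 1 in control 1, and class II members 1, 1 and 5. All 9 lymphoid-gene members came from control 1. Members of no kind numbered 4 in mutant 1, 3 in mutant 2 and 6 in control 1. Tyrobp had UMIs in 0, 0 and 5 of these, so they differed in make-up between the libraries. Those of control 1 include cells at 1.76 and 1.86 CP10K of Mpo and Prtn3, just under the limit of 2. C1q and Mpo/Prtn3 members together thus made up 15 of 21 members of mutant 1, 34 of 43 of mutant 2 and 14 of 35 of control 1.

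**Figure D2:**
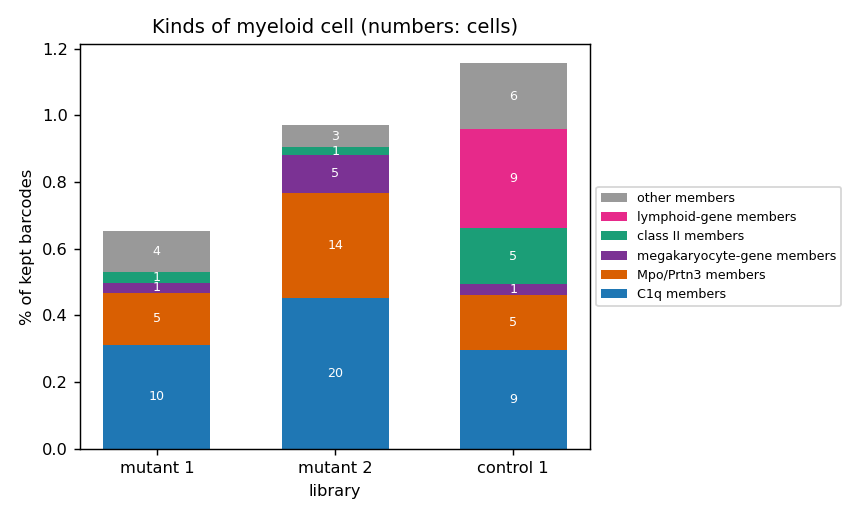
Kinds of members as a percentage of the kept barcodes of each library, stacked, with the number of cells written in each segment. Lymphoid-gene members number 0 in each mutant library and 9 in control 1, and class II members number 1 in each mutant library and 5 in control 1.

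Complement C1q is the first component of the classical complement pathway, built from the products of C1qa, C1qb and C1qc, which lie beside each other on chromosome 4 (GRCm38, minus strand, C1qb from 136880129 to 136886187). C1qb stood at 254 CPM in members of mutant 1, 448 CPM in members of mutant 2 and 202 CPM in members of control 1. In the other kept barcodes it stood at 0.402 CPM in mutant 1, 0.0963 in mutant 2 and 0.0489 in control 1. C1qc stood at 85.5 CPM in members of mutant 1, 213 CPM in members of mutant 2 and 85.6 CPM in members of control 1. PU.1, which the selection itself used through Spi1, binds sites with the core GAGGAA, and the promoters of both genes hold that word. They read as follows, 5′ to 3′ from RefSeq for GRCm38.p6, from 250 bases before to 50 bases after the gene's start, with the match in capitals.

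C1qb (chr4:136886151-136886450, minus strand): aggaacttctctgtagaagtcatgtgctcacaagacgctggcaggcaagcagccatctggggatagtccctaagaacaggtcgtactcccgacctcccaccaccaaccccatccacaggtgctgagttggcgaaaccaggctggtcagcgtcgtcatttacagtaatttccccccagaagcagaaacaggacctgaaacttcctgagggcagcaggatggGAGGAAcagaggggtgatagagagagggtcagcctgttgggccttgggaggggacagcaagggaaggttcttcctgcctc
C1qc (chr4:136892865-136893164, minus strand): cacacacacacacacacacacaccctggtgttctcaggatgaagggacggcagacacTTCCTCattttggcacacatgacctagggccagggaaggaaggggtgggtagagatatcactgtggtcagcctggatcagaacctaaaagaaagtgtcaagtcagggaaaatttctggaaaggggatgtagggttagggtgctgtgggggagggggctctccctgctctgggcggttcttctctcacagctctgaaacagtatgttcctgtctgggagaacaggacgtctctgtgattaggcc

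In C1qb the word lies on the strand of the gene and begins 30 bases before the start. In C1qc it lies on the other strand, so that the printed letters read TTCCTC, and begins 193 bases before the start. The word is common. On either strand it occurred in 28.3% of all 32851 promoter windows of this length. Counted per gene, 31.3% of 27025 genes held it in at least 1 window. Of the 25 genes named below as standing highest in members over the rest, 19 had a window and 13 of those held the word, while Fcer1g and Coro1a held it in no window. A match describes letters and does not show binding.

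Within C1q members the summed C1q level spanned 1.06 to 35.1 CP10K, with medians of 4.90 in mutant 1, 14.9 in mutant 2 and 8.54 in control 1. All 39 had UMIs of Csf1r and of Cx3cr1, the fractalkine receptor of early macrophages and microglia. Csf1r stood at 169 CPM in C1q members of mutant 1, 208 CPM in those of mutant 2 and 167 CPM in those of control 1. Cx3cr1 stood at 323 CPM in mutant 1, 277 CPM in mutant 2 and 291 CPM in control 1, so that both receptors were close in the 3 libraries. Genes of scavenging and tissue residence were not. Mrc1, the mannose receptor, stood at 87.1 CPM in C1q members of mutant 1, 426 CPM in those of mutant 2 and 50.8 CPM in those of control 1, with UMIs in 6 of 10, 15 of 20 and 8 of 9 cells. Dab2, an adaptor of endocytosis, stood at 151 CPM in mutant 1, 633 CPM in mutant 2 and 176 CPM in control 1. Hmox1, which breaks down haem, stood at 45.5 CPM in mutant 1, 190 CPM in mutant 2 and 19.7 CPM in control 1. Apoe, a lipid carrier, stood at 113, 393 and 71.8 CPM. In these 4 genes mutant 2 stood apart from the other mutant library as well as from the control. C1q members of mutant 2 also had more UMIs of Ccl2, a chemokine that draws monocytes, at 153 CPM in 6 of 20 cells with 1 cell holding 62.7% of them, against 0 UMIs in C1q members of mutant 1 and of control 1. Timd4, a receptor for dying cells on many resident macrophages, had UMIs in 3 C1q members, all of mutant 2. P2ry12, a microglial receptor, stood at 26.7 CPM in mutant 1, 22.3 CPM in mutant 2 and 12.9 CPM in control 1. C1q members of mutant 1 had a median depth of 103049 UMIs, those of mutant 2 had 73344 and those of control 1 had 167087.

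Mpo/Prtn3 members had granule enzymes of granulocyte and monocyte precursors. Prtn3, a serine protease of azurophil granules, stood at 875 CPM in Mpo/Prtn3 members of mutant 1, 1103 CPM in those of mutant 2 and 428 CPM in those of control 1. Mpo, which encodes myeloperoxidase, stood at 98.1 CPM in mutant 1, 338 CPM in mutant 2 and 69.9 CPM in control 1. Both chose these cells, so the values describe the choice. Of genes that the limit did not use, Hp, which encodes haptoglobin, stood at 333 CPM in Mpo/Prtn3 members of all libraries and 127 CPM in C1q members. Irf8, a transcription factor of monocytes and macrophages, stood at 238 CPM in Mpo/Prtn3 members and 150 CPM in C1q members. Myb, a factor of blood progenitors, stood at 56.4 CPM in Mpo/Prtn3 members and 20.9 CPM in C1q members. Kit, a progenitor receptor, stood at 32.6 CPM in Mpo/Prtn3 members and 3.32 CPM in C1q members. Csf1r had UMIs in 21 of 24 Mpo/Prtn3 members, Cx3cr1 in 19 and Mrc1 in 1. Over the lists, 7 of 9 progenitor genes stood higher in Mpo/Prtn3 members and 2, Flt3 and Cd27, in C1q members. All 13 tissue residence and scavenger genes with a UMI in either kind stood higher in C1q members.

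The boundary between C1q and Mpo/Prtn3 members is not a gap. Of 83 members that were neither class II nor lymphoid-gene, 18 passed both limits, 21 passed the C1q limit alone, 24 the Mpo and Prtn3 limit alone and 20 neither. Even among C1q members, 37 of 39 had a UMI of Mpo or Prtn3. Within a factor of 2 of a limit lay 8 members for C1q and 24 members for Mpo and Prtn3. The class II limit divided the members cleanly, with 1.16 CP10K the highest below it and 57.5 CP10K the lowest above it.

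**Figure D3:**
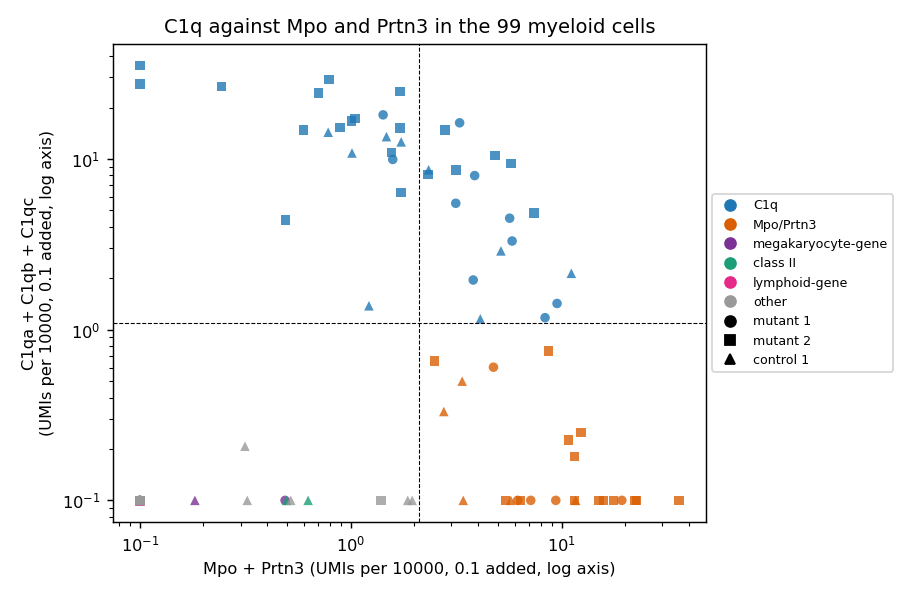
Summed C1qa, C1qb and C1qc against summed Mpo and Prtn3 in each member, in CP10K plus 0.1 on log axes, with colour for kind, marker for library and dashed lines at limits of 1 and 2 CP10K. Cells spread along both axes, and 18 members lie above both lines.

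The smaller kinds carried other programmes. Megakaryocyte-gene members all had UMIs of Pf4, a chemokine of platelet granules, at a median of 90.4 CP10K, and none had a UMI of Csf1r. Their pooled Itgb3, an integrin of platelets, stood at 533 CPM, and Clec1b, a platelet receptor, at 660 CPM. They passed the selection through Fcer1g and Coro1a, which had UMIs in 7 of 7. Fcer1g also serves the collagen receptor of platelets. Class II members held Cd74 at 7673 CPM, Lyz2, the lysozyme of macrophages and neutrophils, at 5870 CPM and Il1b at 653 CPM, with no UMI of C1qa, C1qb or C1qc in any of the 7. Their median depth was 18952 UMIs. A single class II member of control 1 held 104334 of their 209693 UMIs, so it weighs heavily in the pooled class II levels. Lymphoid-gene members had UMIs of Coro1a in 9 of 9, of Spi1 in 2 and of Tyrobp and Fcer1g in none, at a median of 7634 UMIs. None of them had a UMI of Csf1r, so these genes do not bear out the name of myeloid cells for most of them. UMIs of Xist were found in all 7 class II members and 7 of the 9 lymphoid-gene members, against 8 of 39 C1q members and 5 of 24 Mpo/Prtn3 members. Whether all class II and lymphoid-gene members came from the embryos was not tested. In the control library alone, Xist was found in 6 of 9 C1q members and 3 of 5 Mpo/Prtn3 members. Members of no kind had Csf1r in 3 of 13. One of them, in mutant 1, held 2404 of the 2700 UMIs of the embryonic globin gene Hbb-y in members of its library, and another held 60 of 61 UMIs of Pax3, a gene of myogenic and neural precursors.

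**Figure D4:**
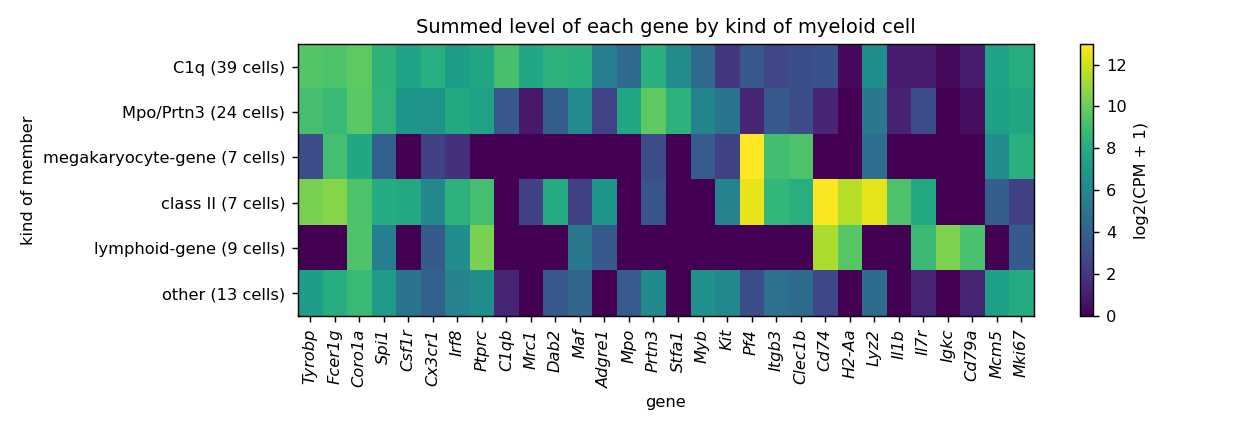
Levels of 30 genes in the 6 kinds of members, as log2(CPM + 1) of UMIs summed over the cells of a kind in the 3 libraries. C1q members are high in C1q, Cx3cr1 and Mrc1, Mpo/Prtn3 members in Prtn3 and Mpo, and megakaryocyte-gene members in Pf4.

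Against the other kept barcodes, 84 of 1451 genes with at least 100 CPM in the members of every library reached a log2 ratio of at least 2 in all 3 libraries, or 5.79%. With a minimum of 20 CPM in the members of every library it was 249 of 5504 genes, or 4.52%. The lists below are read against that share as a description. Listed genes that are low in members fall under that minimum, so each count covers only a part of its list. Ratios carry an offset of 5 CPM on both sides. Outside the genes of the selection, the 25 that stood highest in every library were led by genes of leukocytes at large. Rac2, a GTPase of white blood cells, stood at 282 CPM in members of mutant 1, 285 CPM in mutant 2 and 308 CPM in control 1, against 0.658, 0.693 and 1.18 CPM in other barcodes of the same libraries. Cd52, a leukocyte surface peptide, stood at 284, 296 and 295 CPM in members. Ptprc, the pan-leukocyte phosphatase CD45, stood at 187, 177 and 233 CPM in members, against 0.183, 0.250 and 1.00 CPM in other barcodes. These levels lay close together in the 3 libraries. The others were Prtn3, C1qb, Apbb1ip, Plek, Plac8, Irf8, Laptm5, Hp, Bin2, Csf1r, BC035044, Ctsc, Arhgap15, Pla2g4a, Pf4, Ptpn6, Cx3cr1, Dock8, Cyth4, Runx1, Maf and Dock2. Their place among the kinds differed. Dock2 and Arhgap15, regulators of small GTPases, stood at 1568 and 2734 CPM in lymphoid-gene members, against 122 and 137 CPM in C1q members. Plek, a protein kinase C substrate of platelets and leukocytes, stood at 1118 CPM in megakaryocyte-gene members, against 214 CPM in C1q members. Pf4 rested on few cells and its smallest log2 ratio was 4.44, but 0.36 where barcodes were kept under a mitochondrial share of 5%. It stood at 112 CPM in members of mutant 1, 969 CPM in mutant 2 and 496 CPM in control 1. A single megakaryocyte-gene member held 182 of its 185 UMIs in mutant 1, and a single class II member 1278 of its 1506 in control 1. That class II member also held 28.2 CP10K of the listed megakaryocyte genes.

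Of 19 listed genes of adaptors and their partners outside the selection, 10 had at least 20 CPM, and all 10 reached the ratio. Lyn, a kinase that phosphorylates the adaptors, stood at 297 CPM in members of mutant 1, 268 CPM in mutant 2 and 334 CPM in control 1, against 30.5, 24.8 and 41.1 CPM in other barcodes. Syk, the kinase that docks on them, stood at 41.2 CPM, 75.4 CPM and 70.8 CPM in members. Ptpn6, a phosphatase that damps these receptors, stood at 138, 150 and 142 CPM in members. Kinase and phosphatase were thus both detected beside the adaptors that chose the cells.

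Of 11 myeloid transcription factors with at least 20 CPM, 7 reached the ratio. Irf8 stood at 168 CPM in members of mutant 1, 169 CPM in mutant 2 and 160 CPM in control 1, and Maf, a factor of mature macrophages, at 162, 228 and 149 CPM. Runx1, which blood progenitors need, stood at 255, 358 and 295 CPM. Cebpa, which drives granulocyte precursors, was low at 5.45, 3.03 and 6.59 CPM. Gfi1, another granulocyte factor, and Spic, a factor of red-pulp macrophages, had no UMI in any member.

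The receptor Csf1r stood at 139 CPM in members of mutant 1, 143 CPM in mutant 2 and 132 CPM in control 1, against under 1 CPM in other barcodes of each library. Its ligands were sparse in every class of cell. Csf1 stood at 6.19 CPM in ectodermal cells of mutant 1, 5.47 CPM in mutant 2 and 5.09 CPM in control 1, and at 3.06, 1.88 and 2.08 CPM in mesenchymal cells. Endothelial cells had 2.37, 2.90 and 1.95 CPM of Csf1 and members had 1.21, 1.68 and 0.988 CPM. Of these classes, ectodermal cells held the highest level in each library. Il34, the other ligand, lay under 1 CPM in mesenchymal, endothelial and ectodermal cells, and 17 of its 19 UMIs in members came from 1 C1q member of mutant 1. Cx3cr1 stood at 242 CPM in members of mutant 1, 165 CPM in mutant 2 and 178 CPM in control 1, and its ligand Cx3cl1 at 3.10, 3.95 and 4.21 CPM in endothelial cells.

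Of 16 listed genes of complement and its receptors, 8 had at least 20 CPM, and 7 of those reached the ratio. C3ar1, the receptor for a fragment of complement C3, stood at 20.6 CPM in members of mutant 1, 43.4 CPM in mutant 2 and 20.4 CPM in control 1. Of 29 listed genes for the clearance of dying cells, 8 had at least 20 CPM, and 3 of those reached it. Mertk, a receptor for dying cells in mature macrophages, was not among the 8, since mutant 1 and control 1 lay under 20 CPM. It stood at 12.1 CPM in members of mutant 1, 30.0 CPM in mutant 2 and 17.1 CPM in control 1, against 22.7, 24.3 and 16.2 CPM in other barcodes. C1q members held 80%, 97.8% and 55.8% of its UMIs in members of these libraries. Mfge8, a bridge to dying cells, stood at 3.64, 5.72 and 5.60 CPM in members, against 68.0, 86.4 and 76.6 CPM in endothelial cells. Pros1, another bridging protein, stood at 57.0, 66.3 and 55.3 CPM in members.

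Of 12 listed genes of the NADPH oxidase and of killing, 8 had at least 20 CPM, and 7 of those reached the ratio. Cybb, the catalytic subunit, stood at 64.2 CPM in members of mutant 1, 43.4 CPM in mutant 2 and 74.1 CPM in control 1. Its partner Cyba stood at 377, 446 and 389 CPM, and the cytosolic subunit Ncf1 at 115, 92.2 and 96.1 CPM. Lysosomal genes stood out less, with 3 of 15 at the ratio. Ctsc, the protease that activates granule proteases, stood at 446 CPM in members of mutant 1, 405 CPM in mutant 2 and 284 CPM in control 1, against 8.62, 8.63 and 7.20 CPM in other barcodes. Ctsb stood at 108, 270 and 132 CPM in members, against 70.5, 64.2 and 72.9 CPM in other barcodes.

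Of 19 listed genes of chemokines and their receptors, 3 had at least 20 CPM, and all 3 reached the ratio. Ccl3, which draws monocytes, stood at 98.2 CPM in members of mutant 1, 205 CPM in mutant 2 and 217 CPM in control 1. Of 17 listed inflammatory cytokines and their regulators 1 gene had at least 20 CPM, and it reached the ratio. This was Tgfb1, which encodes a cytokine that restrains inflammation, at 148 CPM in members of mutant 1, 159 CPM in mutant 2 and 210 CPM in control 1, against 25.03, 18.6 and 48.0 CPM in other barcodes. Il6 stood at 4.85 CPM in members of mutant 1, 2.69 CPM in mutant 2 and 4.28 CPM in control 1. Of 3 growth and angiogenic factors with at least 20 CPM, 1 reached the ratio, which was Tgfb1 again. Vegfa, the main growth factor of vessels, stood at 4.24 CPM in members of mutant 1, 1.35 CPM in mutant 2 and 1.65 CPM in control 1, against 34.6, 22.6 and 27.1 CPM in other barcodes. Igf1 stood at 0.606, 7.40 and 0.988 CPM in members, against 16.2, 16.5 and 17.5 CPM in other barcodes.

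Genes of division, cohesin and glycolysis did not reach the ratio. At it stood 0 of 25 genes of S phase, 0 of 24 of G2 and mitosis and 0 of 14 of cohesin and its acetyltransferases. The counts were 0 of 6 for p53 targets and 0 of 15 for glycolysis and hypoxia. Over all genes with at least 20 CPM the share was 4.52%, and counts of 0 in lists this short lie near it. Mki67, a marker of cycling cells, stood at 339 CPM in members of mutant 1, 263 CPM in mutant 2 and 167 CPM in control 1, against 336, 274 and 292 CPM in other barcodes. By kind it stood at 270 CPM in C1q members and 211 CPM in Mpo/Prtn3 members, against 4.77 CPM in class II and 11.8 CPM in lymphoid-gene members. Smc3, a core subunit of cohesin, stood at 218, 215 and 196 CPM in members, against 229, 243 and 214 CPM in other barcodes. Among the genes that stood lowest against the rest, Peg3, an imprinted gene, stood at 13.9 CPM in members of mutant 1, 6.06 CPM in mutant 2 and 5.60 CPM in control 1, against 573, 733 and 578 CPM in other barcodes. Of the 10 lowest, 5 were globin genes (Hba-x, Hba-a1, Hba-a2, Hbb-y and Hbb-bs), and Gpc6, Efna5 and Fbxl7 were the others beside Peg3 and Sema3a. Sema3a, a guidance cue, stood at 15.2, 10.8 and 1.98 CPM in members, against 495, 428 and 360 CPM in other barcodes. With no limits on other lineages, the largest log2 ratio went from -4.93 to -2.66 for Peg3 and from -4.72 to -2.71 for Gpc6. It went from -4.58 to -1.78 for Fbxl7, from -4.67 to -3.24 for Efna5 and from -4.63 to -3.30 for Sema3a. For the 5 globin genes it did not weaken.

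Because depth differs between cells, shares of cells with a UMI were taken after thinning each cell to 5000 UMIs, which left 18 members of mutant 1, 41 of mutant 2 and 33 of control 1. A UMI of Csf1r was then found in 44.4% of members of mutant 1 (95% Clopper-Pearson interval 21.5 to 69.2), in 48.8% of mutant 2 (32.9 to 64.9) and in 27.3% of control 1 (13.3 to 45.5). Erythroid cells, which should lack the receptor, had one in 0.156%, 0% and 0.243% of thinned cells, at median depths before thinning of 67406, 59805 and 96033 UMIs. Without thinning, Csf1r was found in 16 of 21, 31 of 43 and 21 of 35 members. For C1qb the thinned shares were 33.3% of members in mutant 1, 46.3% in mutant 2 and 21.2% in control 1, and for Prtn3 they were 61.1%, 63.4% and 36.4%. For Mki67 they were 72.2%, 65.9% and 33.3%, beside 79.1%, 81.4% and 77.9% of thinned erythroid cells. Such intervals cover the counting of cells within a library, so they are no test between the genotypes. The thinned members of control 1 also include its class II members and most of its lymphoid-gene members, which the mutant libraries hold in smaller numbers or not at all. In C1q members alone Mki67 stood at 416 CPM in mutant 1, 368 CPM in mutant 2 and 183 CPM in control 1. These CPM are scaled by the factors of the edgeR test below, which did not call the difference. The part of the mix of kinds in the thinned shares was not tested.

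Members made up 0.655% of kept barcodes in mutant 1 (95% Clopper-Pearson interval 0.406 to 0.999), 0.972% in mutant 2 (0.704 to 1.31) and 1.16% in control 1 (0.807 to 1.60). Without the lymphoid-gene and class II members the shares were 0.623% in mutant 1, 0.949% in mutant 2 and 0.694% in control 1. The control lay above both mutants with all members and between them without those kinds. An exact permutation of 2 mutants against 1 control cannot give a p below 0.333, so shares were not tested. C1q members made up 10 of 3208, 20 of 4425 and 9 of 3026 kept barcodes in mutant 1, mutant 2 and control 1.

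Whether gene levels of the members differed between mutants and control was tested on the summed UMIs. In edgeR's quasi-likelihood test with Benjamini-Hochberg adjustment, 0 of 3398 genes were called at an adjusted p under 0.05, a background of 0%, and the lowest adjusted p was 0.777. At an unadjusted p under 0.05 stood 126 genes, and DESeq2 called 8 of 2344. Without the lymphoid-gene and class II members edgeR called 0 of 3371, and 132 genes stood at an unadjusted p under 0.05. The test has 1 residual degree of freedom, it takes the spread of the control from the mutants, and the result does not show that levels were alike. Each SE below was computed from the log2 difference and the test's F statistic, so it holds no measured spread between controls. The 5 genes of lowest edgeR p in each direction follow, with CPM scaled by the test's factors. EdgeR called none of them in the fit of 3398 genes, but all 10 with no filter beyond 1 UMI. The unfiltered fit had infinite prior degrees of freedom, against a median of 2.23 in the main fit. It thus took the spread shared over genes as known, and its calls add no support to these genes. DESeq2 called 5 of these 10, with adjusted p-values of 1.16e-11 for Lyz2, 4.85e-11 for Stfa1, 0.00907 for Rps2, 0.00930 for Prtn3 and 0.0207 for Ccdc162. Its other calls were Jun, Fos and Fth1.

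Stfa1, a cysteine protease inhibitor with close paralogs whose reads may be shared, stood at 243 CPM in mutant 1 and 267 CPM in mutant 2, against 32.6 CPM in control 1. The log2 difference was 2.97 (SE 0.20, edgeR adjusted p = 0.777), and it was 2.86 without the lymphoid-gene and class II members and 1.29 in C1q members alone. Its UMIs came from 7 cells of mutant 1, 11 of mutant 2 and 4 of control 1, and a single cell held 55.6%, 25.1% and 48.8% of them. Prtn3 stood at 607 CPM in mutant 1 and 626 CPM in mutant 2, against 320 CPM in control 1, a log2 difference of 0.95 (SE 0.13). Within C1q members alone the difference of Prtn3 was -0.12, with 0.30 in mutant 1 and -0.71 in mutant 2. Nrp1, a receptor for VEGF and semaphorins, stood at 105 CPM in mutant 1 and 118 CPM in mutant 2, against 40.4 CPM in control 1. Both mutants lay above the control for these genes and for Auts2 and Lcorl, whose log2 differences were 1.21 and 1.11. Where barcodes removed by the limits on other lineages were added, the difference was -0.44 for Auts2, 0.22 for Nrp1 and 0.43 for Lcorl.

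Lyz2 stood at 88.1 CPM in mutant 1 and 82.1 CPM in mutant 2, against 521 CPM in control 1, a log2 difference of -2.62 (SE 0.14, edgeR adjusted p = 0.777). Class II members held 1219 of the 1343 Lyz2 UMIs of control 1, and a single cell held 54.8%. Without lymphoid-gene and class II members the difference of Lyz2 was 0.66, the other direction. Its neighbour Lyz1, a close paralog, had no UMI in any member, and how reads shared by both were counted is unknown. Ccdc162 stood at 65.7 CPM in mutant 1 and 63.5 CPM in mutant 2, against 229 CPM in control 1, and a single Mpo/Prtn3 member held 42.8% of the control's UMIs. Rps2, a ribosomal protein gene, stood at 3748 CPM in mutant 1 and 3782 CPM in mutant 2, against 5023 CPM in control 1.

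Genes of the immediate early response are switched on within minutes of a stimulus or of handling, and the 9 tested had negative differences. None was called by edgeR, while DESeq2 called Jun (log2 -1.73, adjusted p = 0.000675) and Fos (log2 -1.69, adjusted p = 0.0384). Junb stood at 59.4 CPM in mutant 1 and 67.0 CPM in mutant 2, against 187 CPM in control 1. Egr1 stood at 41.3 CPM in mutant 1 and 36.4 CPM in mutant 2, against 123 CPM in control 1, a log2 difference of -1.66. Over these 9 genes the median was -1.56, against a median of -0.0020 over all 3398 genes. Without the lymphoid-gene and class II members the median of the 8 tested was -0.97, and the difference of Junb was -0.25. In control 1, Fos UMIs came from 31 of 35 members, while 3 cells held 61.1% of those of Egr1. Class II members held 35.6% and lymphoid-gene members 27.7% of the control's Junb UMIs. Within C1q members alone the log2 difference of Fos was -1.44 and that of Jun -1.45, both uncalled by edgeR. The part of freezing, thawing and handling of the libraries was not tested.

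Other lists are given by counts and medians, with 0 genes called by edgeR in each. DESeq2 called Lyz2, which is in the macrophage core and NADPH oxidase lists, Prtn3 among granulocyte markers and Fth1 among lipid and iron genes. Antigen presentation had a median log2 difference of -2.35 over 7 tested genes, with -4.75 in mutant 1 and -1.50 in mutant 2, and of -0.11 over the 2 genes tested without lymphoid-gene and class II members. Tissue residence and scavenger genes had a median of 0.54 over 6 genes, all positive, with 0.04 in mutant 1 and 1.06 in mutant 2. Macrophage core genes had a median of 0.27 with 8 of 12 positive, complement genes 0.77 with 4 of 5 positive, and lysosomal genes 0.31 with 9 of 12 positive. Cohesin genes had a median of 0.07 with 6 of 9 positive, S phase genes 0.07 with 12 of 18, and genes of G2 and mitosis 0.26 with 17 of 23. Without lymphoid-gene and class II members, S phase genes had a median of -0.006 with 9 of 18 positive. In C1q members alone it was -0.14 with 4 of 19. In the same 2 settings the medians were 0.07 and 0.23 for cohesin genes and 0.18 and 0.37 for G2 and mitosis. Several of the medians over all members rested on mutant 2 more than on mutant 1. Summed markers of other cells also differed between libraries. The summed level of 11 erythroid genes in members was 3798 CPM in mutant 1 and 670 CPM in mutant 2, against 688 CPM in control 1. In mutant 1 it rested on a single cell, chosen at 2.04 CP10K, that held 5410 UMIs of globin genes, with 2404 of the 2700 UMIs of Hbb-y. The summed level of 15 mast cell and granulocyte genes was 590 CPM in mutant 1 and 697 CPM in mutant 2, against 311 CPM in control 1, with Ctsg, Mcpt8, Prg2, S100a9 and Retnlg at 0. That of 10 lymphocyte genes was 26.1 CPM in mutant 1 and 32.0 CPM in mutant 2, against 131 CPM in control 1. The part of these cells in the list medians was not tested beyond the values given without them.

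**Figure D5:**
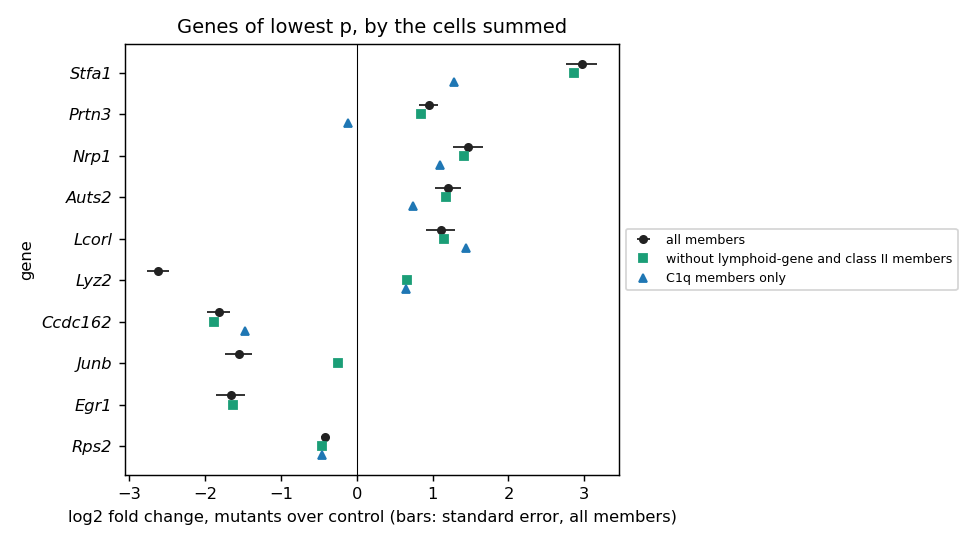
Log2 difference of mutants over control in the summed UMIs of members for the 10 genes of lowest p, with SE bars for all members and points without lymphoid-gene and class II members and for C1q members alone. The bars hold no measured spread between controls. EdgeR called none in its main fit, and DESeq2 called Lyz2, Stfa1, Prtn3, Ccdc162 and Rps2. Lyz2 lies at -2.62 with all members and 0.66 without those kinds.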

How the data were processed

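Single-cell RNA was read from 2 mutant libraries and 1 control library of forelimb buds, made per the labels' protocols from trypsin-released cells that were frozen, thawed and pooled before droplet capture with 10x Chromium 3′ reagents. The deposited values are counts of UMIs per gene and barcode, written by Cell Ranger 7.0.0 per the file headers. The submitters' processing notes name the build mm10 and also Seurat 4.0.0, whose role is unknown. Settings of alignment and cell calling are not given in those sources. No normalisation had been applied to the counts. The matrices held 7219 barcodes with 178159788 UMIs in mutant 1, 8755 with 225032823 in mutant 2 and 6527 with 202581488 in control 1.

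Members were selected by the rule in the report, and their UMIs were summed per library. Mutants were compared with the control by edgeR 4.0.16 (quasi-likelihood F test, TMM factors) over genes averaging 50 CPM or more, with calls at a p under 0.05 after Benjamini-Hochberg adjustment. DESeq2 1.42.0 was an alternative. With 1 residual degree of freedom, p-values measure only the spread between these libraries, which may be technical. Members and the rest were compared by CPM without a test. The genes named are the 25 highest and 10 lowest by the smallest and largest log2 ratio in any library at 100 CPM or more, the 5 of lowest p in each direction among mutants, and genes of 33 lists. The members, rule and lists were chosen with earlier results of these data known, and the kinds of members and 7 of the alternatives after the data were seen. Comparison classes came from gates on marker genes, at 2 CP10K for mesenchyme and ectoderm, 4 for endothelium and 1000 CP10K of globins for erythroid cells. Scrublet (scanpy 1.11.5, expected rate 0.06) marked 1.75%, 1.83% and 0.628% of kept barcodes in mutant 1, mutant 2 and control 1, and marked barcodes stayed in. Intervals and limits from 3 counts cover counting error only. Coordinates were taken from an annotation that matched 30934 of 31054 features. The count test was tested on simulated data. Python 3.11.15, numpy 2.4.6, scipy 1.17.1, pandas 2.3.3, anndata 0.12.19, matplotlib 3.10.9, R 4.3.3 and limma 3.58.1 were used.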

Additional observations from a re-analysis of the deposited data

How the results depend on the processing

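The share of members in control 1 was 1.78% with no limits on other lineages, against 1.16% in the report. It was 0.694% without lymphoid-gene and class II members. Of 24 recomputed shares, 22 stayed within their counting interval. The 24 leave out the settings of C1q members, of C1q and Mpo/Prtn3 members, and of members with at least 20000 UMIs. In the last of these, shares were 0.561% in mutant 1, 0.859% in mutant 2 and 0.727% in control 1. The edgeR count of 0 held in 16 of 18 alternatives. With no filter beyond 1 UMI it was 404, 109 higher and 295 lower, and each of the 10 named genes was among them. In that fit the median prior degrees of freedom, the weight on a spread shared over genes, were infinite, against 2.23 in the main fit. The log2 difference of Lyz2 was -2.62 in both fits. Means lay under 50 CPM for 315 of the 404 and at 50 CPM or more for 89. DESeq2 called 8. The cause was not tested. Of 11 alternatives for the 84 genes over the rest, 10 stayed within 1.5 times, and a minimum of 50 CPM gave 150, since more genes were then compared. Signs turned for Lyz2, to 0.66 without lymphoid-gene and class II members, 0.60 in C1q and Mpo/Prtn3 members and 0.65 in C1q members, since class II members of the control held most of its UMIs. They also turned for Prtn3, to -0.12 in C1q members, where mutant 1 gave 0.30 and mutant 2 -0.71. For Auts2 the sign turned to -0.44 with no limits on other lineages, and the causes of both were not tested. No other sign of the 10 named genes turned. Of 350 checks of the 35 genes named over or under the rest, 348 stayed past a log2 ratio of 2, and the others were Pf4 at 0.36 with a mitochondrial share under 5% and Fbxl7 at -1.78 with no limits on other lineages. Leaving out a mutant library leaves 1 against 1, so no test was run there. No paired analysis was possible because only 1 control library was used. Sums rest on 21 to 43 cells a library, and single cells decide some genes.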

Other observations

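Of 14 inflammatory cytokine genes with a UMI in either kind, 12 stood higher in class II members and 2 in C1q members. Of 13 tissue residence and scavenger genes, 2 stood higher in class II members and 11 in C1q members. Ccr2, the receptor that brings monocytes out of the blood, stood at 348 CPM in class II members, in 3 of 7 cells, and at 5.10 CPM in C1q members, in 9 of 39 cells. Cd14, a co-receptor for bacterial lipid, stood at 267 CPM in class II members and at 4.85 CPM in C1q members. These are descriptions of cells pooled over libraries, and 5 of the 7 class II members came from control 1. A single one of those 5 held 104334 of the 209693 UMIs of class II members.

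Igkc and Ccl5 had UMIs in members of control 1 alone. Igkc, an immunoglobulin light chain gene, had 0 UMIs in members of mutant 1, 0 in mutant 2 and 117 in control 1, of which lymphoid-gene members held 116. Ccl5, a chemokine of T and natural killer cells, had 0 UMIs in members of mutant 1, 0 in mutant 2 and 157 in control 1, and 1 lymphoid-gene member held 156 of them.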
